A study of Mus musculus with 40 samples.

Results

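The genes described here are 8 lysosomal cathepsins, Ctsa, Ctsb, Ctsd, Ctsh, Ctsk, Ctsl, Ctss and Ctsz, and Pld3, a lysosomal nuclease. They were taken by name, 9 genes of the 55536 in the count tables, a set chosen by their measured levels in the 8 groups, and all 9 passed the filter on low counts in both injury models. Those levels and the differences between them are therefore a description. Counts of members that passed the fit across all genes are printed beside the share of all genes that passed, nothing is read from them, and adjusted p-values are given only for genes outside the set. The data are RNA-seq read counts from the left lung of 40 C57BL/6 mice of both sexes, 5 in each of 8 groups, harvested on day 28. In the bleomycin model, mice received bleomycin at 1.5 U/kg, a DNA-damaging drug that injures the alveolar epithelium, or saline into the oropharynx. In the adenoviral model, they received by the nose an adenovirus that makes mouse TGF-β1 from the CMV promoter (Ad-TGFβ), which drives a transgene in most cell types that take it up, or the same vector without an insert (empty vector). Within each of these 4 arms, 5 mice were gavaged with saracatinib, an inhibitor of Src family kinases, at 20 mg/kg and 5 with its vehicle, from day 10 to day 27, which is 18 days of dosing. The labels name no genetic change in any group.

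Cathepsins are proteases that reach the lysosome through the secretory pathway and become active in its acid interior, where they break down proteins brought in by endocytosis, phagocytosis and autophagy. Macrophages hold the largest stores of most of them in the lung, and alveolar type 2 cells use some of them to process surfactant proteins. Many genes of the lysosome share a promoter element, an extended E-box, that is bound by transcription factors of the MiT/TFE family such as TFEB, TFE3 and MITF. Ctsd is the main aspartic protease of the lysosome, and Ctsa is a serine carboxypeptidase that also stabilises β-galactosidase and neuraminidase. The other 6 cathepsins are cysteine proteases. Ctss trims the invariant chain that guards MHC class II molecules, Ctsk degrades fibrillar collagen, Ctsh takes part in surfactant protein processing, Ctsz removes single residues from the carboxyl end, and Ctsb and Ctsl are broad-acting. Pld3 belongs to the phospholipase D family by sequence but degrades single-stranded nucleic acids from the 5′ end, which limits their sensing by TLR9.

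All 9 genes are annotated as protein-coding in the GRCm38 mouse genome build, and the positions below span the whole annotated gene. Ctsa (ENSMUSG00000017760) lies at chr2:164832873-164841032 on the forward strand and Ctsd at chr7:142375911-142388038 on the reverse strand. Ctsb lies at chr14:63122462-63145923 (forward), Ctsh at chr9:90054152-90076089 (forward), Ctsl at chr13:64359337-64370890 (reverse), Ctsz at chr2:174427493-174439039 (reverse) and Pld3 at chr7:27532000-27553218 (reverse). Ctsk, at chr3:95499256-95509362, and Ctss, at chr3:95526786-95556403, are neighbours on the forward strand, 17423 bases apart. Exons of Ctsa overlap those of Neurl2 and Pltp, exons of Ctsb those of Fdft1 and exons of Ctsz those of Nelfcd, in each case on the opposite strand. The strand setting of the authors' counting was not stated, and without strand the reads of such partners cannot be told apart. Exons of Ctsd also overlap those of Gm49369 on the same strand. Exons of Ctsl overlap those of Gm47123 and Gm49230, 1 of them on the same strand. Reads in a same-strand overlap cannot be told apart even with strand. The highest mean of these partners was 0 CPM for Ctsd and 0.00454 CPM for Ctsl. In bleomycin against saline under vehicle, the log2 fold change was -0.30 for Neurl2, -0.24 for Pltp, 0.08 for Fdft1 and 0.07 for Nelfcd, and none of these 4 passed the test. In the other comparisons only Neurl2 passed, lower with Ad-TGFβ under vehicle (-0.49, edgeR adjusted p = 0.0365). For saracatinib in bleomycin lungs, Neurl2 and Pltp were both at 0.41 (edgeR adjusted p = 0.125 and 0.0623).

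RefSeq promoter windows of GRCm38.p6, 250 bases before to 50 after a transcript's start, were available for 7 of the 9 genes (8 windows, since Ctsa has a pair), leaving Ctsb and Ctsh named only. The windows of Ctsa, Ctsd and Ctss are shown because they hold letter matches to the extended E-box or to an element of the PU.1 type. Binding of any factor to them was not tested. Capitals mark each match to the extended E-box TCACGTGA, to the shorter E-box core CACGTG where it stands alone, or to GAGGAAGT, an element of the type bound by the myeloid factor PU.1 (in Ctss on the reverse strand, so that its complement is read). Ctsa and Ctss are at chr2:164833523-164833822 and chr3:95526536-95526835 on the forward strand, and Ctsd is at chr7:142387778-142388077 on the reverse strand.
Ctsa: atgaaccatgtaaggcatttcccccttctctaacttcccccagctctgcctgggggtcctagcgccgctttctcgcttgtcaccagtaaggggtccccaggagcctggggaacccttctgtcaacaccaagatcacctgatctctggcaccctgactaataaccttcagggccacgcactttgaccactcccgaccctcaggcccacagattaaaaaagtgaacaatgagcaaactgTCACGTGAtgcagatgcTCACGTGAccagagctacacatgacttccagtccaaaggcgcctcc
Ctsd: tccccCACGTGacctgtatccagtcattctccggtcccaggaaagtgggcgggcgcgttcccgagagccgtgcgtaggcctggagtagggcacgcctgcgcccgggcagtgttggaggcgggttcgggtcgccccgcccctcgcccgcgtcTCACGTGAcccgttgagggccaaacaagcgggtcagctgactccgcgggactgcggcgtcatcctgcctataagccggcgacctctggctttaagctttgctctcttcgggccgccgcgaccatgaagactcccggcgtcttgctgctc
Ctss: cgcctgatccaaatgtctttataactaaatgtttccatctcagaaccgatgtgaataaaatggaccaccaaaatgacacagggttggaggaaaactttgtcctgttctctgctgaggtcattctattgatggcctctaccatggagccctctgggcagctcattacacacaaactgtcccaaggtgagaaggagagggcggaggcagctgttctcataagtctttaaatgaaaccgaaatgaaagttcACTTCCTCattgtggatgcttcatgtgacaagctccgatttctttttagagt
Both strands of all 32851 windows of 300 bases were searched for 4 motifs. The extended E-box was present in 0.974% of all windows and in 2 of the 8 member windows, those shown for Ctsa and Ctsd. In the Ctsa window shown it occurred at positions 238 and 255, on either side of the start, and in Ctsd at position 152. The other Ctsa window, at chr2:164832622-164832921, held no match to any of the 4 motifs. The core CACGTG, which every extended E-box contains, was in 7.15% of all windows. It was in 3 of the 8 member windows, with that of Ctsl as the third. GAGGAAGT was in 3.2% of all windows and in that of Ctss alone among the 7. TGANTCA, the element of AP-1 factors, was in 7.81% of all windows and in none of the 8 member windows. Such matches describe letters in a short window and do not show binding.

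Total counts ranged from 8812233 to 17336972 per library, and a member's count in a library ranged from 115 to 11022. Values below are CPM, counts scaled to a common library total with edgeR's TMM factors over all 40 libraries, given as mean ± SD (n = 5 mice). Fold changes are log2 values ± SE from edgeR's quasi-likelihood fit of the 20 libraries of a model, and "called" means a Benjamini-Hochberg adjusted p under 0.05 over all genes tested. In whole-lung RNA, more cells of a type and more RNA per cell cannot be told apart. No 2 libraries of a group agreed within sampling noise (chi-square per degree of freedom 4.29 to 52.7 over 80 pairs). Macrophage markers were present in every group, alveolar type 2 markers were abundant (5670 to 11100 summed CPM over the 4 vehicle groups), and Ly6g, which marks neutrophils, was at 0 in all saline saracatinib libraries.

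To set different genes side by side, levels were divided by exon length in kilobases. All annotated exons of a gene were merged for this, which can exceed the length of the transcripts expressed. Lengths ran from 1.36 kb for Ctss to 6.49 kb for Ctsl, and the order and shares of the genes depend on them. In CPM, Ctsl (114) stood above Ctsz (57.2) and Ctss (56.6) in vehicle-treated saline lungs. Per kilobase, the members had 3 tiers in those lungs. Ctsd (51.5 CPM per kb), Ctsh (47.7), Ctsb (44.1), Ctss (41.7) and Ctsz (39.7) were the most abundant, Ctsa (18), Ctsl (17.5) and Pld3 (16.3) followed, and Ctsk was lowest at 9.1. In vehicle-treated bleomycin lungs Ctss stood first at 300 CPM per kb, above Ctsd at 191, and Ctsk at 50.2 passed Pld3, Ctsa and Ctsl. In vehicle-treated Ad-TGFβ lungs Ctss was again first, at 220 CPM per kb against 97.4 for Ctsd. Ctsk (17.9 ± 2.25) and Ctsl (18 ± 1.35) were lowest there and about level. Expressed as a share of the 9 genes' summed CPM per kb, Ctss made up 14.5% ± 1.89 in saline vehicle, 31.3% ± 1.35 in bleomycin vehicle and 25.9% ± 1.91 in bleomycin saracatinib lungs. Its share was 21.2% ± 3.61 in empty vector vehicle and 35.6% ± 1 in Ad-TGFβ vehicle lungs. Shares of Ctsh (16.7% to 10.8%) and Ctsl (6.14% to 3.03%) were smaller in bleomycin vehicle than in saline vehicle lungs, although the CPM of both genes was higher. The make-up of the RNA of these 9 genes thus differed between groups as well as its amount.

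**Figure D1:**
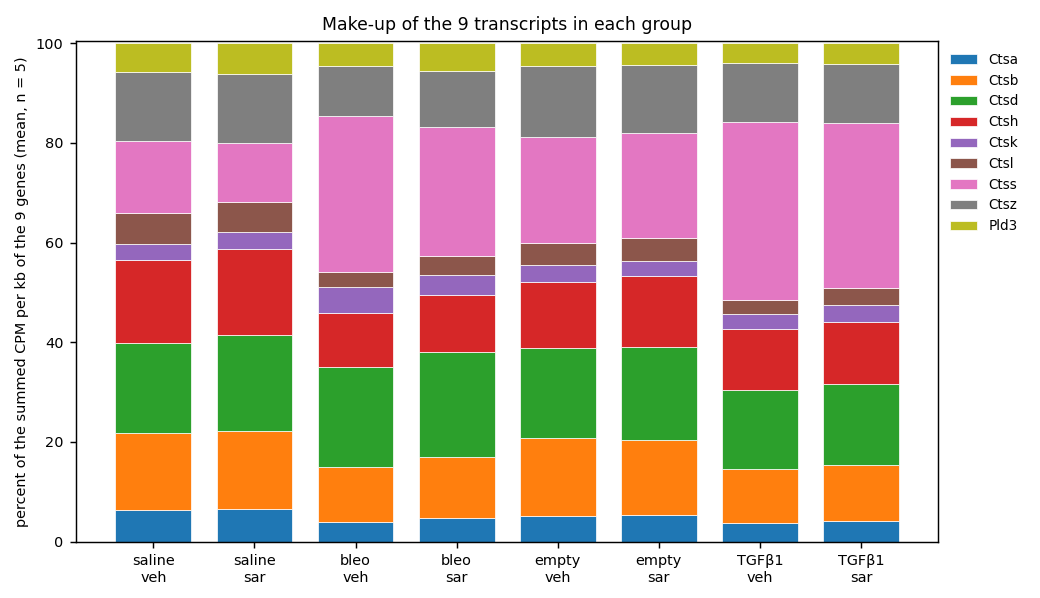
Share of the 9 genes' summed CPM per kilobase of exon taken by each gene (percent, vertical axis) in each of the 8 groups (horizontal axis), as the mean of 5 libraries. The Ctss part is larger in bleomycin vehicle (31.3%) and Ad-TGFβ vehicle lungs (35.6%) than in their controls (14.5% and 21.2%).

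Bleomycin against saline in vehicle-treated lungs asks how injury alone changed these genes. All 9 were higher after bleomycin, with no overlap between the 5 bleomycin and the 5 saline libraries for any of them, and fold changes ran from 1.64 for Ctsl to 7.08 for Ctss. Over all 18846 genes tested, the groups did not overlap for 15.2%, higher after bleomycin, and for 11.5%, lower. All 9 members were called, against 20.6% of genes called higher and 20.3% called lower. Their median log2 fold change was 1.23, beside -0.03 over all genes tested. Summed over the 9 genes, the level was 977 ± 55 CPM in saline and 2670 ± 256 CPM in bleomycin lungs.

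**Figure D2:**
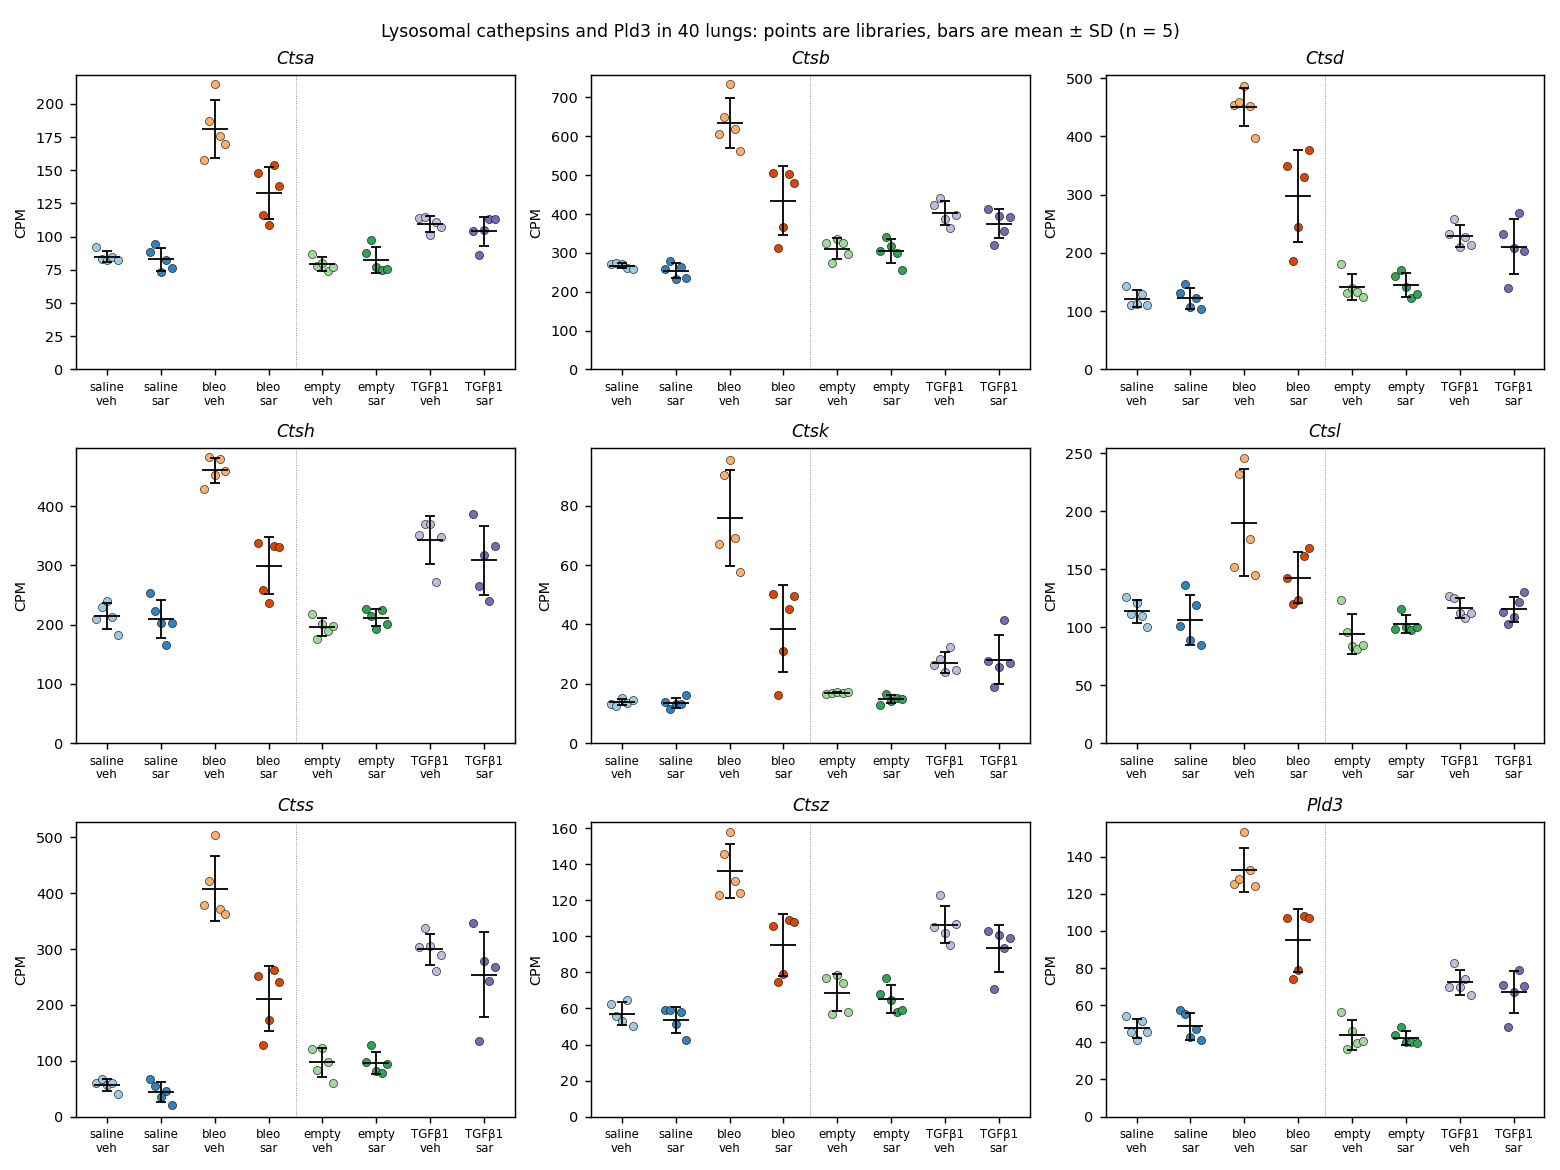
CPM of each of the 9 genes (vertical axis, linear from 0, 1 panel per gene) in the 8 groups (horizontal axis; veh, vehicle; sar, saracatinib), with points for the 5 libraries and bars for mean ± SD. The bleomycin vehicle group has the highest mean in all 9 panels, and its Ctss libraries lie between 363 and 504 CPM.

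Among the cysteine proteases, Ctss had the largest difference. It stood at 60.3, 66.9, 55.8, 60.2 and 40.1 CPM in the saline vehicle libraries and at 379, 422, 504, 372 and 363 CPM in the bleomycin vehicle libraries, a log2 fold change of 2.82 ± 0.25. Every bleomycin library lay above 5 times the highest saline library. Ctsk, the collagen-degrading member, was low at 13.1, 12.5, 15.1, 13.5 and 14.6 CPM in saline and reached 67.1, 90.4, 95.3, 69.2 and 57.8 CPM after bleomycin (2.44 ± 0.23). The spread of Ctsk among bleomycin libraries was wider than among saline libraries (SD 16.1 against 1.09 CPM), yet the groups stayed well apart. Ctsb, the most abundant member in CPM, was 267 ± 6.83 in saline and 634 ± 63.9 in bleomycin lungs (1.23 ± 0.11). Ctsz was 57.2 ± 6.14 and 136 ± 15.2 CPM (1.23 ± 0.12), and Ctsh 215 ± 22 and 460 ± 21.4 CPM (1.08 ± 0.11). Ctsl had the smallest difference: 126, 111, 121, 110 and 100 CPM in saline against 152, 232, 246, 176 and 145 CPM in bleomycin lungs (0.72 ± 0.15). Its lowest bleomycin library, at 145 CPM, stood just above its highest saline library, at 126 CPM.

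The aspartic protease Ctsd stood at 143, 111, 113, 130 and 110 CPM in saline and at 454, 459, 487, 452 and 398 CPM in bleomycin vehicle lungs (1.87 ± 0.15). Its lowest bleomycin library was more than 2 times its highest saline library. The nuclease Pld3 was 54, 45.8, 41.2, 51.4 and 45.8 CPM in saline and 125, 128, 153, 133 and 124 CPM after bleomycin (1.45 ± 0.12). Its lowest bleomycin library was more than 2 times its highest saline library. Ctsa went from 84.9 ± 4.21 to 181 ± 21.6 CPM (1.07 ± 0.10).

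Most of the other lysosomal genes that were listed rose after bleomycin as well. The lists were written with earlier results of these data known. Of 83 genes outside the set that encode other lysosomal peptidases, hydrolases, membrane and sorting proteins and subunits of the vacuolar ATPase, the proton pump that acidifies the lysosome, 58 rose and 2 fell by edgeR's test, with a median log2 fold change of 0.44. Over all genes tested, 20.6% were called higher and 20.3% lower. Among the 11 other peptidases tested, 8 rose and none fell. These included Lgmn, the asparaginyl endopeptidase that processes cathepsins (211 ± 55.9 against 81.5 ± 6.8 CPM, 1.35 ± 0.16, edgeR adjusted p = 3.89e-06), and Ctsc, which activates granule serine proteases (304 ± 27 against 159 ± 29.3 CPM, 0.91 ± 0.15, edgeR adjusted p = 0.000117). Of the 34 hydrolases and their activators, 25 rose and 1 fell. Psap, whose product is cut into the saposin activators, rose from 552 ± 33.6 to 1300 ± 42.4 CPM (1.21 ± 0.11), and the tartrate-resistant phosphatase Acp5, an osteoclast and macrophage enzyme, rose from 7.65 ± 4.5 to 42.8 ± 2.52 CPM (2.45 ± 0.29). The hyaluronidase Hyal1 was the gene that fell (-0.85 ± 0.20, edgeR adjusted p = 0.00221).

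Of the 21 membrane and sorting genes, 12 rose, among them Laptm5 (1.54), Cd63 (1.12) and the sterol carrier Npc2 (1.12), and 1, Gnptg, fell (-0.17). Of the 17 vacuolar ATPase genes, 13 rose and none fell, led by Atp6v0d2, the subunit found in osteoclasts and macrophages (2.40 ± 0.28, edgeR adjusted p = 3.13e-06). Of 6 cathepsin inhibitors tested, 4 rose and none fell, including Cstb, a cytosolic inhibitor (1.28 ± 0.16), and Cst3, the secreted cystatin C (0.37 ± 0.11). Of 9 MiT/TFE factors and their regulators, 6 rose and none fell, among them Tfec (1.56 ± 0.25, edgeR adjusted p = 8.75e-05) and Mitf (0.50). Tfeb, named here after its values were seen, was 30.9 ± 2.93 CPM in saline and 32.2 ± 3.54 CPM in bleomycin lungs (0.04 ± 0.08, edgeR adjusted p = 0.726).

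Around Pld3, 2 of 7 genes of the phospholipase D family and of lysosomal nucleases rose and none fell. They were Pld4, the other lysosomal exonuclease of that family (46.9 ± 6.57 against 23.1 ± 2.33 CPM, 1.00 ± 0.15, edgeR adjusted p = 5.34e-05), and Dnase2a (0.48). Of the 6 endosomal nucleic acid receptors, whose ligands such nucleases remove, 5 rose and none fell, including Tlr8 (2.02), Tlr13 (1.70), Tlr7 (1.51) and Tlr9 (0.85). Of 8 MHC class II presentation genes, 6 rose and none fell. The invariant chain Cd74, the substrate of Ctss in antigen-presenting cells, rose from 634 ± 99.9 to 1280 ± 124 CPM (1.00 ± 0.14). Of 5 osteoclast-type fusion genes tested, 3 rose, Dcstamp among them (1.96), and Mmp9 fell (-0.80, edgeR adjusted p = 0.0469), a call that was lost under 14 of 26 alternatives.

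Markers of several cell types moved along with the members after bleomycin. All 10 monocyte-derived macrophage markers rose, led by Trem2 (3.51) and Gpnmb (3.15), and their summed level was 390 to 428 CPM in saline and 1160 to 1540 CPM in bleomycin lungs. Of 8 general macrophage markers 7 rose and none fell (summed level 946 to 1840 and 2410 to 3130 CPM), including Cd68 (2.21). Of 8 alveolar macrophage markers 2 rose and 2 fell (141 to 340 and 384 to 621 CPM), with Chil3 at 1.82 and Krt79 at -2.57. Of 7 fibroblast markers 4 rose and 1 fell (2400 to 2970 and 4050 to 8750 CPM), the 7 alveolar type 2 markers lay between -0.18 and 0.37 (5900 to 8980 and 6610 to 10900 CPM), and all 5 ciliated cell markers fell (551 to 1440 and 238 to 650 CPM). Of the other lists, 3 of 7 T and NK cell markers and 1 of 6 neutrophil markers rose, 2 of 6 dendritic cell markers rose and 1 fell, and 2 of 5 endothelial markers fell. The part of these cell types in the members' levels was not tested.

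Saracatinib against vehicle in bleomycin lungs asks what inhibitor treatment changed in injured lungs; this comparison shares the 5 bleomycin vehicle libraries with the one above. Members were lower under saracatinib in every case, from -0.42 for Ctsl to -0.98 for Ctsk on the log2 scale (fold 0.75 and 0.507). For 8 of the 9 the groups did not overlap and edgeR called the same 8, all but Ctsl, while 4.04% of all genes were higher and 5.89% lower with no overlap, and 5.31% were called higher and 8.71% lower. The median of the 9 was -0.55, beside 0.01 over all genes tested. Summed over the 9, the level was 2670 ± 256 CPM under vehicle and 1750 ± 353 CPM under saracatinib.

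Ctsk had the largest difference and the most uneven treated libraries: 50.2, 16.2, 31.1, 45.3 and 49.7 CPM under saracatinib (-0.98 ± 0.21). Library 2 of the treated group, at 16.2 CPM, lay just above the saline vehicle libraries of 12.5 to 15.1 CPM, and 3 of the 5 libraries were 45.3 CPM or higher. Ctss was 251, 128, 173, 262 and 241 CPM (-0.95 ± 0.23), all below the lowest vehicle library, at 363 CPM. Ctsh was 338, 259, 236, 333 and 330 CPM against 460 ± 21.4 CPM under vehicle (-0.62 ± 0.11), and Ctsd was 349, 186, 245, 331 and 376 CPM (-0.60 ± 0.15). The gap for Ctsd was narrow, since its highest treated library was at 376 and its lowest vehicle library at 398 CPM. Ctsb was 434 ± 88.7 CPM (-0.55 ± 0.11), Ctsz 95.4 ± 17.1 CPM (-0.52 ± 0.12) and Ctsa 133 ± 19.8 CPM (-0.44 ± 0.10). Pld3 stood at 107, 74.1, 79, 108 and 107 CPM (-0.48 ± 0.12), below all of its vehicle libraries. Ctsl, at 142, 120, 123, 161 and 168 CPM, overlapped its vehicle libraries (-0.42 ± 0.15). Treated library 2 was the lowest of its group for 7 of the 9 genes and library 3 for the other 2, so the group's spread was shared by the members.

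**Figure D3:**
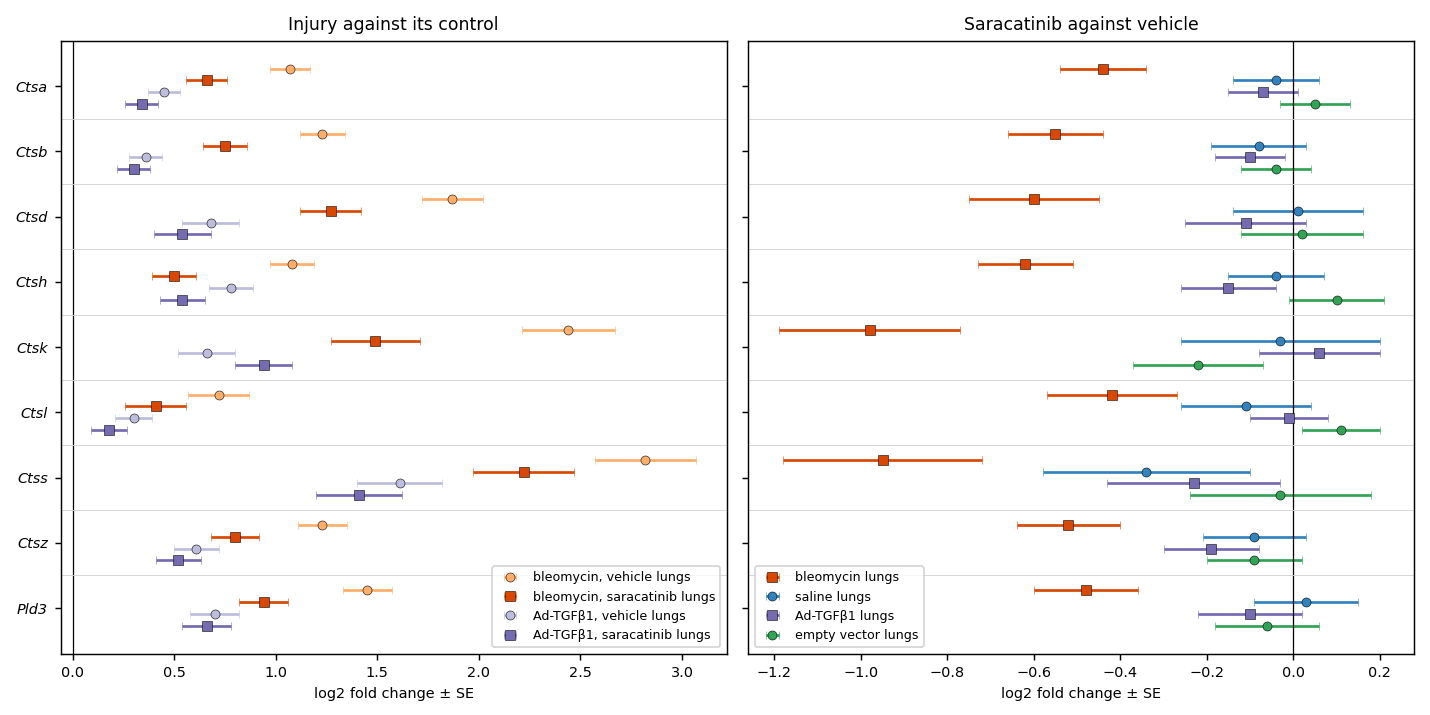
Log2 fold change ± SE (horizontal axes) of each of the 9 genes (rows), for injury against its control (left) and saracatinib against vehicle (right). In bleomycin lungs the saracatinib values lie between -0.98 and -0.42, and those in Ad-TGFβ lungs between -0.23 and 0.06.

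Of the 83 other lysosomal genes, 26 fell and 1 rose, with a median of -0.20, and the 27 calls became 16 without bleomycin vehicle library 3, 15 without bleomycin saracatinib library 2 and 15 without bleomycin saracatinib library 3. Among the peptidases 3 of 11 fell and none rose, including Lgmn (129 ± 23.1 against 211 ± 55.9 CPM, -0.70 ± 0.16, edgeR adjusted p = 0.00726). The value for Ctsc was -0.43 ± 0.15 (edgeR adjusted p = 0.0608). Of the hydrolases 13 of 34 fell, among them Gusb (-0.56), which splits glucuronic acid from its substrates. The phosphatase Acp5 also fell (-0.83 ± 0.26, edgeR adjusted p = 0.0409), but that call was lost without any single bleomycin vehicle library and without bleomycin saracatinib library 2, 3 or 5. Hyal1 was the hydrolase that rose (0.66, edgeR adjusted p = 0.0327), a call lost without bleomycin vehicle library 1, 3 or 5 or bleomycin saracatinib library 2, 3 or 5.

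Of the membrane and sorting genes 7 of 21 fell and none rose, led by Cd63 (82.9 ± 13.8 against 139 ± 29.5 CPM, -0.74 ± 0.12, edgeR adjusted p = 0.00198), Laptm5 (-0.60) and Npc2 (-0.56). Of the vacuolar ATPase genes 3 of 17 fell and none rose. Cathepsin inhibitors fell in 2 of 6 cases, Cstb (-0.70 ± 0.16) and Kng2 (-1.38), the latter with a close paralog, Kng1, so that its counts are uncertain, and with a call lost under 11 of 26 alternatives. Tlr8 (-1.05 ± 0.21, edgeR adjusted p = 0.00386), Tlr7 (-0.75) and Tlr13 (-0.80) fell among the 6 nucleic acid receptors. The calls of Tlr7 and Tlr13 were lost without bleomycin saracatinib library 2 or 3, and that of Tlr13 also without bleomycin vehicle library 2 or 3. Pld4 (-0.42 ± 0.15, edgeR adjusted p = 0.0666) and Cd74 (-0.25 ± 0.14, edgeR adjusted p = 0.223) did not pass, and the 8 MHC class II genes lay between -0.30 and 0.36.

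**Figure D4:**
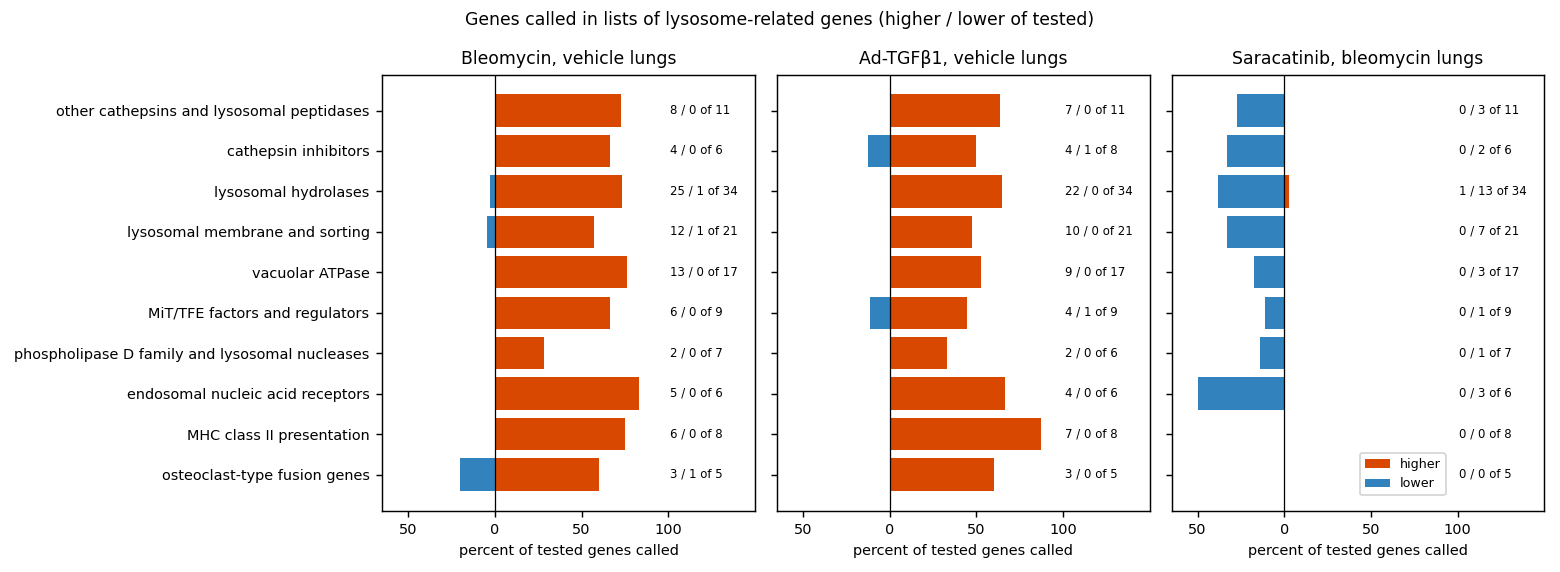
Percent of tested genes called higher (to the right of 0) or lower (to the left) in each gene list (rows) for bleomycin under vehicle, Ad-TGFβ under vehicle and saracatinib in bleomycin lungs, with the counts beside the bars. In the vacuolar ATPase list 13 of 17 genes rose after bleomycin, 3 of 17 fell under saracatinib and 9 of 17 rose after Ad-TGFβ.

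The cell type markers moved as well. Of 8 general macrophage markers 5 fell and none rose (2410 to 3130 CPM summed under vehicle, 2010 to 2480 under saracatinib), and of 10 monocyte-derived macrophage markers 5 fell and none rose (1160 to 1540 and 571 to 1280 CPM), among them C1qa and C1qb (both -1.05). The summed alveolar macrophage markers went from 384 to 621 CPM under vehicle to 211 to 317 CPM under saracatinib, with 2 of 8 called lower. Of 7 fibroblast markers 4 fell, including Col1a1 (-1.40) and Cthrc1 (-2.05), and the summed levels were 4050 to 8750 and 2250 to 3220 CPM. The 7 alveolar type 2 markers lay between -0.01 and 0.32. In the opposite direction, 3 of 5 B cell markers rose, led by Pax5 at 1.01 (summed 34.2 to 58.4 and 58.7 to 94.5 CPM), as did 1 of 5 endothelial markers (Ednrb, 1.03) and 1 of 5 ciliated markers (Tppp3, 0.71). Both of the latter calls were lost without bleomycin saracatinib library 2 or 3, and that of Tppp3 also without bleomycin saracatinib library 5 or bleomycin vehicle library 2 or 3. The part of these cells in the lower member levels was not tested.

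In saline lungs, where saracatinib was given without injury, none of the 9 members was called by edgeR, and the log2 differences lay between -0.34 for Ctss and 0.03 for Pld3. No member had an unadjusted p under 0.05, beside 1401 of the 18846 genes tested. DESeq2 and limma voom each called 0 members, while edgeR called 0% of all genes higher and 0.00531% lower. Ctss was 67.7, 54.7, 34.7, 44.9 and 20.5 CPM under saracatinib, on both sides of the saline vehicle values. Of the 83 other lysosomal genes edgeR called 0, with 9 at an unadjusted p under 0.05, 1 called by DESeq2 and 0 by limma voom.

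Bleomycin against saline within saracatinib-treated mice gave differences of the same sign for all 9 members, from 0.41 for Ctsl to 2.22 for Ctss. Of the 9, 8 were called higher, all but Ctsl, against 7.79% of genes called higher and 8.18% called lower. The groups did not overlap for 6 members, while for Ctsh, Ctsk and Ctsl they did, and over all genes 6.3% were higher and 4.48% lower with no overlap. Ctsd was 122 ± 17.9 CPM in saline saracatinib and 298 ± 79.3 CPM in bleomycin saracatinib lungs (1.27), and Pld3 48.7 ± 7.25 and 95 ± 17 CPM (0.94). The interaction term of the fit, which subtracts the saracatinib difference of the saline arm from that of the bleomycin arm, was negative for all 9, from -0.30 for Ctsl to -0.95 for Ctsk. EdgeR called none of the 9, against 0.61% of genes called higher and 0.446% lower. An unadjusted p under 0.05 was found for 7 of them and for 18.3% of all genes. DESeq2 called 1 member, Ctsh (-0.58), and 838 genes in all, and limma voom called 0 members and 415 genes. No difference between the arms is read from these counts.

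In the adenoviral model, Ad-TGFβ against empty vector under vehicle gave smaller differences of the same sign. All 9 members were higher, from 0.30 ± 0.09 for Ctsl to 1.61 ± 0.21 for Ctss, and all were called, against 11.5% of 18834 genes called higher and 14.3% called lower. The median of the members was 0.66, beside -0.01 over all genes. Groups overlapped only for Ctsl, and over all genes 5.89% were higher and 3.05% lower with no overlap. The call of Ctsl was lost under 6 of 26 alternatives, which were fitting only the compared groups and leaving out empty vector vehicle library 3, 4 or 5 or Ad-TGFβ vehicle library 1 or 2.

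Ctss was again first, at 121, 82.5, 123, 97.8 and 59.7 CPM with the empty vector and 304, 338, 305, 260 and 290 CPM with Ad-TGFβ. The lowest Ad-TGFβ library was more than 2 times the highest control library. Ctsh was 196 ± 15.3 and 342 ± 40.6 CPM (0.78 ± 0.11), Pld3 43.9 ± 7.94 and 72.3 ± 6.55 CPM (0.70 ± 0.12) and Ctsd 142 ± 22.4 and 229 ± 18.9 CPM (0.68 ± 0.14). Ctsk stood at 16.7, 17, 17.1, 16.8 and 17.3 CPM in controls (SD 0.246 CPM, from counts of 166 to 208). With Ad-TGFβ it stood at 26.3, 28.2, 24, 32.5 and 24.7 CPM (0.66 ± 0.14). Ctsz was 68.9 ± 10.5 and 107 ± 10.3 CPM (0.61 ± 0.11), Ctsa 79.3 ± 4.99 and 110 ± 5.65 CPM (0.45 ± 0.08) and Ctsb 311 ± 25.9 and 403 ± 30.3 CPM (0.36 ± 0.08). Ctsl was 123, 95.7, 84, 81.1 and 84.7 CPM with the empty vector and 127, 125, 112, 108 and 112 CPM with Ad-TGFβ.

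Of the 83 other lysosomal genes, 48 rose and none fell with Ad-TGFβ (median 0.27). The peptidases that rose numbered 7 of 11, including the surfactant-processing Napsa (1.05, edgeR adjusted p = 0.00125), Ctsc (0.89 ± 0.13, edgeR adjusted p = 0.000363) and Lgmn (0.61 ± 0.08, edgeR adjusted p = 0.000127). Psap rose from 618 ± 58 to 915 ± 67.3 CPM (0.55), and 22 of the 34 hydrolases rose in all. Of the inhibitors 4 of 8 rose, Cst3 (0.67) and the leukocyte cystatin Cst7 (1.32) among them, and Kng1 fell (-1.87), a call lost without empty vector vehicle library 5. Of the 9 MiT/TFE factors and regulators 4 rose, among them Tfec (0.97) and Mitf (0.32), and 1 fell, Rragd (-0.46 ± 0.11, edgeR adjusted p = 0.00571), while Tfeb stood at 0.00 ± 0.08 (edgeR adjusted p = 0.985). Tfec lost its call when only the compared groups were fitted. Pld4 rose (0.64 ± 0.18, edgeR adjusted p = 0.0116), a call lost without empty vector vehicle libraries 1 and 5 together, as did Tlr13 (1.22), Tlr8 (1.06), Tlr7 (0.97) and Cd74 (0.78 ± 0.18). Macrophage and type 2 cell markers moved with the members here: 7 of 10 monocyte-derived macrophage markers (summed 360 to 556 and 576 to 745 CPM), 5 of 8 alveolar macrophage markers (103 to 377 and 365 to 515 CPM), 6 of 8 general macrophage markers (1240 to 2140 and 2490 to 2850 CPM) and 6 of 7 type 2 markers (5670 to 9470 and 9560 to 11100 CPM) rose and none in these lists fell. Of the other lists, 3 of 6 neutrophil markers rose (37.4 to 58 and 47.7 to 136 CPM), as did 3 of 7 T and NK cell markers, led by Cd8a at 1.45 (22.1 to 62 and 75.2 to 86.5 CPM). Of 7 fibroblast markers 2 rose and 1 fell, 1 of 5 B cell markers fell, and all 5 ciliated cell markers fell (677 to 1430 and 474 to 728 CPM). The part of these cells in the members' levels was not tested.

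Saracatinib in Ad-TGFβ lungs left the members between -0.23 for Ctss and 0.06 for Ctsk on the log2 scale. EdgeR called 0 of the 9 in this comparison, which shares the Ad-TGFβ vehicle libraries with the one above, against 0.0478% of all genes called higher and 0.0425% lower. No member had an unadjusted p under 0.05, beside 1649 of the 18834 genes tested, and DESeq2 and limma voom each called 0 members. Ctss was 346, 136, 279, 242 and 267 CPM under saracatinib and 260 to 338 CPM under vehicle, so the groups overlapped, and treated library 2 was the lowest of its group for 8 of the 9 members. Ctsk was 27.8, 18.8, 25.7, 41.4 and 27.1 CPM, with library 4 the highest. Of the 83 other lysosomal genes edgeR called 0, with 2 at an unadjusted p under 0.05 and 0 called by DESeq2 or limma voom. In empty vector lungs saracatinib gave differences between -0.22 for Ctsk and 0.11 for Ctsl, with 0 of 9 called by edgeR, DESeq2 or limma voom. EdgeR called 0% of all genes higher and 0.00531% lower. At an unadjusted p under 0.05 there were 0 members and 2084 of the 18834 genes tested.

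Ad-TGFβ against empty vector within saracatinib-treated mice gave positive differences for all 9, from 0.18 for Ctsl to 1.41 for Ctss. EdgeR called 7 of the 9, all but Ctsb and Ctsl, against 2.21% of genes called higher and 0.361% lower. That count fell to 4 without empty vector saracatinib library 4 or 5 or Ad-TGFβ saracatinib library 1, 3 or 5. The groups were apart for Ctsh, Ctsk and Ctss, and for 2.66% (higher) and 1.52% (lower) of all genes. The interaction of saracatinib with Ad-TGFβ lay between -0.24 for Ctsh and 0.28 for Ctsk, with 0 members called and 0% of all genes called in either direction by edgeR, where 1933 genes had an unadjusted p under 0.05, DESeq2 called 1 gene and limma voom 413. No member was called by DESeq2 or limma voom or had an unadjusted p under 0.05.

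The models were compared in a fit of all 40 libraries, with each injury set against its own control. The injury effect was larger for bleomycin than for Ad-TGFβ in all 9 members, by 0.30 for Ctsh to 1.79 for Ctsk, with a median of 0.76 beside 0.03 over all genes. Of the 9, 7 were called, all but Ctsh and Ctsl, against 8.64% of 19529 genes called higher and 6.47% called lower. Ctsk was 5.44-fold above control in the bleomycin model and 1.58-fold in the Ad-TGFβ model, and Ctsd 3.65-fold and 1.6-fold. Ctsh was closest between the models, at 2.11-fold and 1.72-fold. Among other lysosomal genes, Acp5 (1.86), Cd63 (1.01), Npc2 (0.94) and Lgmn (0.74) were also called higher in this difference, while Cd63 stood at 83.5 ± 6.31 against 76.2 ± 9.59 CPM within the Ad-TGFβ model (0.11 ± 0.07). In all, 22 of the 83 were called higher and 1 lower, as were 8 of the 10 monocyte-derived macrophage markers, all higher. The controls were not level: Ctss was 56.6 ± 10.1 CPM in saline vehicle and 96.9 ± 26.9 CPM in empty vector vehicle lungs.

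The saracatinib effect in bleomycin lungs minus that in Ad-TGFβ lungs was negative for all 9, from -0.33 for Ctsz to -1.04 for Ctsk, with a median of -0.45 beside 0 over all genes. As a description, since the members were named with these levels known, edgeR called 1 of them, Ctsk (-1.04 ± 0.26), against 1.05% of genes called higher and 1.41% called lower. An unadjusted p under 0.05 was found for 8 members and for 16.4% of all genes. The call of Ctsk was lost under 6 of 45 alternatives, which were leaving out bleomycin vehicle library 2 or 3, bleomycin saracatinib library 3, Ad-TGFβ vehicle library 1 or 3, or Ad-TGFβ saracatinib library 4. DESeq2 called Ctsb as well. Ctsb was also called by edgeR without bleomycin vehicle library 5, bleomycin saracatinib library 1 or 4, or Ad-TGFβ saracatinib library 2. Outside the set, the saracatinib effect on Cd63 was also lower in bleomycin lungs (-0.79 ± 0.14, edgeR adjusted p = 0.0064).

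Over all 8 groups, bleomycin vehicle lungs had the highest mean of every member. Setting the groups in order of their means, neighbours whose libraries did not overlap were few. For Ctsa, Ctsb, Ctsd and Pld3 only bleomycin vehicle stood clear of the next group, bleomycin saracatinib. Ctsh in bleomycin vehicle stood clear of the next group, Ad-TGFβ vehicle. Ctsk had a second gap, between Ad-TGFβ vehicle and empty vector vehicle. Ctss had gaps between bleomycin vehicle and Ad-TGFβ vehicle, between bleomycin saracatinib and empty vector vehicle, and between empty vector saracatinib and saline vehicle. The lower gaps hold for those neighbours only. For Ctsk, bleomycin saracatinib library 2, at 16.2 CPM, lay below all empty vector vehicle libraries. For Ctss, empty vector saracatinib library 2 met bleomycin saracatinib library 2 at 128 CPM. Empty vector vehicle library 5 for Ctss, at 59.7 CPM, lay within the saline vehicle libraries (40.1 to 66.9 CPM). For Ctsl no neighbouring groups were apart, and for Ctsz bleomycin vehicle met Ad-TGFβ vehicle at 123 CPM.

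The members varied together across libraries. In the 20 libraries of the bleomycin model, Pearson's r of log2 CPM over the 36 pairs of members ran from 0.82 to 0.99 with a median of 0.96, and in the Ad-TGFβ model from 0.61 to 0.97 with a median of 0.86. These points share groups, library depth and scaling. After subtracting each group's mean, the range was 0.32 to 0.90 (median 0.72) in the bleomycin model and -0.33 to 0.91 (median 0.60) in the Ad-TGFβ model. Ctsd and Pld3 were at 0.99 across the bleomycin libraries and 0.90 within groups, and Ctsz and Pld3 had the same 2 values. In the Ad-TGFβ model Ctsd and Pld3 were the closest pair, at 0.97 and 0.91. The chromosomal neighbours Ctsk and Ctss were at 0.93 across but 0.37 within groups in the bleomycin model, and at 0.85 and 0.32 in the Ad-TGFβ model, both within-group values below the medians of all pairs. Ctsh and Ctsk, at -0.33 within the groups of the Ad-TGFβ model, were the least alike. All of these are descriptions over 20 libraries.

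Members were also set against the mean log2 CPM of each marker list, in which every marker counts equally. With the monocyte-derived macrophage markers Pearson's r over the 20 libraries lay between 0.84 and 0.98 (median 0.96) in the bleomycin model, and between 0.53 and 0.86 (median 0.71) after the group means were subtracted. Other lists were also close: general macrophage markers lay between 0.89 and 0.99 and fibroblast markers between 0.80 and 0.89 in the bleomycin model, with ciliated cell markers between -0.89 and -0.73. In the Ad-TGFβ model the median was 0.85 for monocyte-derived macrophage, 0.91 for general macrophage and 0.86 for T and NK cell markers (0.70 to 0.95), and ciliated cell markers lay between -0.88 and -0.63. After the group means were subtracted, the medians in the bleomycin model were 0.72 for general macrophage, 0.58 for fibroblast and -0.49 for ciliated cell markers. In the Ad-TGFβ model the median after subtraction was 0.49 for monocyte-derived macrophage markers (0.12 to 0.88). It was 0.71 for general macrophage, 0.57 for T and NK cell and -0.46 for ciliated cell markers. Without that subtraction, r with the alveolar macrophage markers was between -0.05 and 0.32 in the bleomycin model but between 0.57 and 0.91 in the Ad-TGFβ model. With the type 2 cell markers it was 0.24 to 0.48 and 0.68 to 0.86. Summed CPM, to which the most abundant markers contribute most, gave another picture for the alveolar macrophage list: its sum in the bleomycin model was highest in bleomycin vehicle lungs (384 to 621 CPM, against 141 to 340 CPM in saline vehicle lungs), while 2 of its 8 genes rose and 2 fell.

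**Figure D5:**
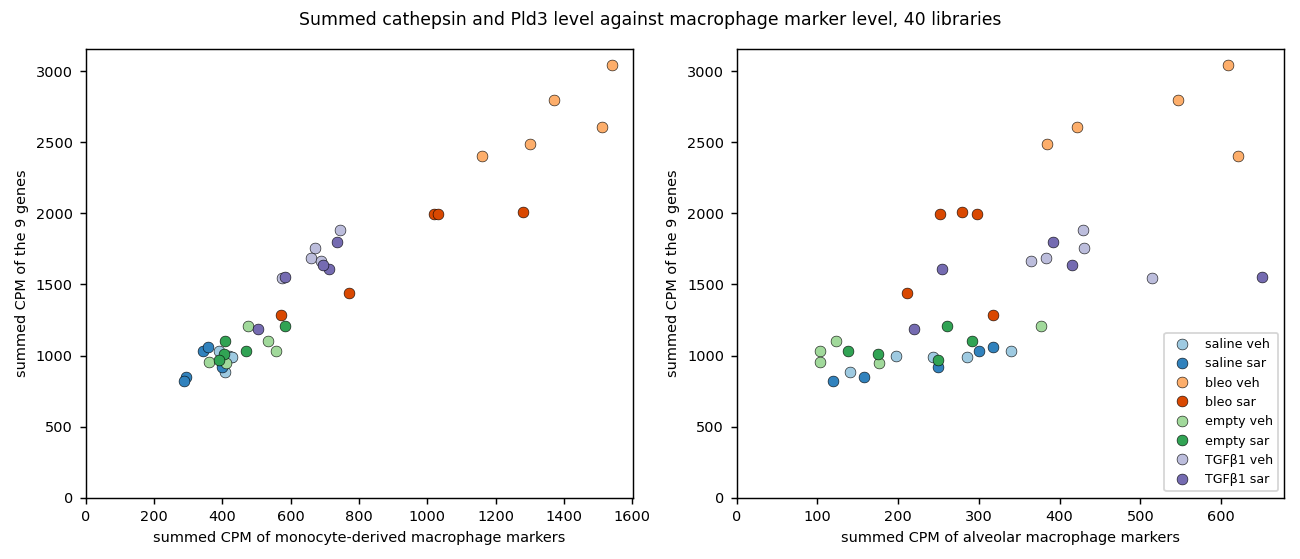
Summed CPM of the 9 members (vertical axis) against the summed CPM of the monocyte-derived and the alveolar macrophage markers (horizontal axes, left and right) in each of the 40 libraries, coloured by group. Bleomycin vehicle libraries lie at 1160 to 1540 CPM of monocyte-derived and 384 to 621 CPM of alveolar macrophage markers.

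Among the genes most like the mean of the 9 members, by Pearson's r over the 20 libraries of the bleomycin model, were Gnptab (0.985), which makes the mannose 6-phosphate tag of lysosomal enzymes, the macrophage protein Cd68 (0.984), Psap (0.983), Myo5a (0.982), Man2b1 (0.982), Fcgr3 (0.981), Lgmn (0.979), Ildr2 (0.979) and Abca1 (0.979). In the Ad-TGFβ model they were Clec4n (0.975), Cndp2 (0.972), Cd68 (0.972), Fcgr3 (0.97), Grn (0.97), Siglec1 (0.97), Clec7a (0.967), Lgmn (0.964), Itgb2 (0.962) and Psap (0.962). Cd68, Fcgr3, Lgmn and Psap stood in both lists. Members differed in their nearest genes. In the bleomycin model Ctss was nearest to Itgb2 (0.993) and Mpeg1 (0.992), which leukocytes and phagocytes express, Ctsd to Psap (0.993) and Gpnmb (0.982), Ctsk to genes that included Tgm1 (0.974), Ctsh to Mal (0.981) and Npc2 (0.979), and Ctsl to Esd (0.969). In the Ad-TGFβ model Ctss was nearest to Mpeg1 (0.988) and Itgax (0.981), Ctsk to Gpnmb (0.91) and Ly75 (0.908), and Pld3 to Cd68 (0.962) and Siglec1 (0.957).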

How the data were processed

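RNA-seq of mouse left lung was analysed in 40 libraries, 5 mice in each of 8 groups taken from the sample labels. The authors deposited raw read counts per gene, 1 table per injury model with 55536 Ensembl genes. Libraries were depleted of ribosomal RNA and made with a stranded kit, per the labels' protocols. STAR 2.6.1d, Picard, Subread 1.6.3 (featureCounts) and edgeR, with the builds mm9 and GRCm38, are named per the submitters' processing notes, and their settings are not given in the sources used here. Normalized tables were not used here. Symbols came from a reference table (55450 IDs matched), and exon lengths and positions from a GRCm38 annotation.

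The counts were fitted with edgeR 4.0.16 in R 4.3.3 (filterByExpr, TMM, glmQLFit and glmQLFTest), on the 20 libraries of a model, or on all 40 for differences between models. Benjamini-Hochberg adjustment ran over all genes tested, with a threshold of 0.05. CPM used TMM factors over all 40 libraries, and correlations used log2 CPM with a prior count of 2. The members and the gene lists were chosen with earlier results of these data known, and some lists were adapted from that earlier work. Named genes beyond the members were up to 4 called genes per list (2 for cell type markers) with a mean of at least 1 CPM and the largest absolute log2 fold change, and the nearest genes by Pearson's r. Genes named for comparison after their values were seen are Psap, Ctsc, Cd63, Acp5, Cd74, Pld4, Tfeb and Lgmn wherever they fall outside that rule, and Gnptg and Ly6g. Genes whose exons overlap those of a member were named for that overlap. The mice of a group are taken as separate animals from the labels, which name no litter or batch. Scripts were tested on simulated counts with known changes. Alternatives were DESeq2 1.42.0, limma 3.58.1 voom with quality weights, DESeq2 size factors, no filter, only the compared groups, leaving out each library, and leaving out the 2 libraries of a model farthest from their group. A few genes that the naming rule picks are not reported here.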

Additional observations from a re-analysis of the deposited data

Results flagged for a closer look

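In 4 of the 72 combinations of a member and a group, a library stood apart from the other 4 by Dixon's criterion for 5 samples (gap to the nearest over the whole range above 0.71), which chance gives in about 1 of 20. Ctsa was 92.2 CPM in saline vehicle library 1 and 82.2 to 84.7 CPM in the others, a gap of 0.75 of the range. Ctsd was 181 CPM in empty vector vehicle library 1 and 125 to 140 CPM in the others (0.732). Ctsh was 272 CPM in Ad-TGFβ vehicle library 4 and 348 to 370 CPM in the others (0.776). Ctsl was 116 CPM in empty vector saracatinib library 2 and 97.3 to 100 CPM in the others (0.856).

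For 8 values edgeR called the difference between the injury models. They are given as a description only, since the members were named with these levels known. The bleomycin effect exceeded the Ad-TGFβ effect by a log2 value of 0.63 for Ctsa, 0.88 for Ctsb, 1.2 for Ctsd, 1.79 for Ctsk, 1.22 for Ctss, 0.62 for Ctsz and 0.76 for Pld3. The saracatinib effect in bleomycin lungs minus that in Ad-TGFβ lungs was -1.04 for Ctsk.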

How the results depend on the processing

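No member changed sign where it was called, under any alternative. Of 3132 values of a member under an alternative, 36 lost the call and 20 gained it, and the rest kept their side of the threshold. Of the rest, 7 were not called in either fit and moved by at least the SE of the main fit. The other 3069 were called in both fits, or were called in neither and moved by less than that SE. Changes of sign were counted only where the main fit called the gene. Values near 0 that were not called did change sign, such as Ctsd for saracatinib in saline lungs (0.01, with alternatives from -0.07 to 0.07). Counts of members called moved by over 1.5 times under DESeq2, from 0 to 1 in the bleomycin interaction and from 1 to 2 in the saracatinib difference between models. By less than that, DESeq2 gave 9 in place of 8 for saracatinib in bleomycin lungs, DESeq2 and voom each gave 9 in place of 8 for bleomycin under saracatinib and 8 in place of 7 for Ad-TGFβ under saracatinib, and fitting only the compared groups gave 5 in place of 7 for the last and 8 in place of 9 for Ad-TGFβ under vehicle. Among the other named genes, 53 of 54 kept their call under every alternative for bleomycin under vehicle, 15 of 33 for saracatinib in bleomycin lungs and 42 of 54 for Ad-TGFβ under vehicle.

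Counts over all genes moved more. Saracatinib in saline lungs, with 1 gene, gave 3 without a filter, 52 with DESeq2, 9 with voom and 0 without the 2 farthest libraries, an alternative chosen after seeing the data. In the same order of settings where they moved, the bleomycin interaction (199) gave 838 (DESeq2), 415 (voom) and 46 (farthest out), and saracatinib in Ad-TGFβ lungs (17) gave 51 (DESeq2) and 101 (voom). Saracatinib in empty vector lungs (1) gave 0 (no filter), 7 (DESeq2), 0 (only the compared groups) and 130 (farthest out). Ad-TGFβ under saracatinib (485) gave 793, 959 and 941 (DESeq2, voom, farthest out), and its interaction (0) gave 1, 413 and 254. The injury difference (2951) gave 4756 with voom, and the saracatinib difference (481) gave 219 (no filter), 766 (DESeq2) and 753 (farthest out). The cause was not tested.

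Leaving out each library in turn gave 6558 to 8235 genes for bleomycin under vehicle (members 9 to 9), 1326 to 3120 for saracatinib in bleomycin lungs (8 to 9), 0 to 9 for saracatinib in saline (0 to 0), 1672 to 3489 for bleomycin under saracatinib (8 to 9) and 35 to 583 for the interaction (0 to 1). For Ad-TGFβ under vehicle it gave 3314 to 7127 (8 to 9), for saracatinib in Ad-TGFβ lungs 0 to 26 (0 to 0), in empty vector lungs 0 to 1112, for Ad-TGFβ under saracatinib 181 to 807 (4 to 8) and for its interaction 0 to 1190. The highest values in empty vector lungs and for the Ad-TGFβ interaction came without empty vector vehicle library 1. For the injury difference it gave 2245 to 3849 (7 to 7) and for the saracatinib difference 106 to 803 (0 to 2). No paired analysis was possible because the labels give no replicate numbers that tie mice across groups. The lowest count of a member in a library was 115, and the part of depth in the members' values was not tested.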
